A study of Mus musculus with 8 samples.

Results

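The 9 genes described here encode the chemokine receptors Ccr1, Ccr2, Ccr7, Cx3cr1, Cxcr2, Cxcr3, Cxcr4, Cxcr6 and Ackr3, which take part in the entry of monocytes and other leukocytes into tissue. They were chosen by name, through the symbol of the array probe or the gene of its RefSeq accession, and not by any measured value. All 9 were on the array, among 47242 distinct names, and each was read by 1 probe. The study compared donor-derived myeloid cells from the ischemic mouse brain by the donor's genotype at Selplg, the gene of PSGL-1 (also written Psgl1), a leukocyte glycoprotein that binds selectins. In the Psgl1-/- group (4 samples, replicates 5 to 8), the donor marrow lacked Selplg and carried the red fluorescent protein DsRed. In the Psgl1+/+ group (4 samples, replicates 1 to 4), the donor marrow was wild-type at Selplg and carried DsRed as well. The hosts of both groups were wild-type mice, so cells of the host kept PSGL-1 in both. All samples were taken 7 days after an occlusion of the middle cerebral artery of 30 min. Both groups were enriched for CD11b with magnetic beads and then sorted as propidium iodide-negative, DsRed+, CD11b+, Ly6G-, CD3- cells with high CD45. The labels give no age and no sex, and do not say how many animals a sample holds, so a p-value speaks only of how these samples vary, and that variation may be technical.

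Chemokine receptors are membrane proteins that bind small secreted chemokines and, in most cases, signal through G proteins of the Gi class to integrins and the cytoskeleton. Selectin ligands such as PSGL-1 let a leukocyte roll on the vessel wall, where it can meet chemokines that arrest it. In mice, Ccr2 draws Ly6C-high monocytes out of the marrow and into injured brain, Cx3cr1 is a hallmark of Ly6C-low monocytes and of microglia, and Cxcr4 holds leukocytes in the marrow through its ligand Cxcl12.

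The probe sequences are shown because every value below rests on a single probe per receptor, and a probe reads only the transcripts that hold its sequence. They were copied from the deposited scanner files, 5′ to 3′, and no other probe on the array had the same sequence as any of them. The probes were 50 to 56 bases long. For Ccr2 and Ackr3 the first 30 bases are given. The RefSeq table places Ccr1, Ccr2, Cx3cr1 and Cxcr6 on chromosome 9, Cxcr2, Cxcr4 and Ackr3 on chromosome 1, Ccr7 on chromosome 11 and Cxcr3 on chromosome X, while the scanner files list the position of all 9 probes as unmapped, so no coordinates are given and the exon or UTR they read is not known.
Ccr2: atgtcttccctgaattgagccaaaaatgtt
Cx3cr1: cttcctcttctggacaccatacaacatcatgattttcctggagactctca
Ccr1: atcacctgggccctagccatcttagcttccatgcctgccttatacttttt
Cxcr2: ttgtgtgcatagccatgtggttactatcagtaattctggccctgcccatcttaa
Ccr7: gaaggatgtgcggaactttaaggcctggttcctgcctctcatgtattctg
Cxcr4: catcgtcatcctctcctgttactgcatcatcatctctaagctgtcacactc
Ackr3: tgtaaggctgttgtattcagaccatgtagg
Cxcr3: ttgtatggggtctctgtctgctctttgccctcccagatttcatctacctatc
Cxcr6: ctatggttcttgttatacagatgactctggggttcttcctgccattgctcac

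Levels are given as scaled log2 signal, which is the log2 of a spot's background-corrected brightness after each array was shifted to a common 75th percentile, so 1 unit is a doubling. Differences are Psgl1-/- minus Psgl1+/+ on that scale. Before the shift, the 75th percentile of the signal lay between 832.2 and 956.6 on the Psgl1-/- arrays and between 518.3 and 746.9 on the Psgl1+/+ arrays, so the groups did not overlap in overall brightness. Of the gene spots, 76.1 to 88.2% were well above background, with the 4 arrays in slide row 2 (76.1 to 81.6%) below the 4 in row 1 (86.2 to 88.2%). Each row held 2 arrays of each group, whereas slide columns 3 and 4 held only Psgl1-/- arrays and columns 1 and 2 only Psgl1+/+ arrays, so column and genotype cannot be told apart. The Selplg probe differed by -0.64 (SE 0.65, adjusted p = 0.680 in limma); no label says which part of Selplg is deleted, so this probe does not check the genotypes. Of the genes of the sort gate, Itgam (CD11b) and Ptprc (CD45) were well above background on all 8 arrays, but so were Cd3e on all 8 and Ly6g on 7 of 8, the 2 markers the gate was set to exclude. In bulk samples, fewer cells of a type and less RNA per cell cannot be told apart.

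None of the 9 receptors differed between Psgl1-/- and Psgl1+/+ cells at an adjusted p under 0.05 in limma, over 42432 genes tested, of which 0.00236% passed. Without adjustment, 1 of 9 had a p under 0.05, Cx3cr1 with a negative difference, beside 9.37% of all genes tested with such a p and a negative difference. The values of the groups did not overlap for the same gene only, beside 10.8% of all genes with no overlap and lower signal in Psgl1-/- cells. These shares over 9 genes are close to the background. The difference was positive for 3 receptors (Ccr2, Cxcr4 and Cxcr6) and negative for the other 6, with a median of -0.30, against -0.33 for all genes tested, of which 69.2% were negative. The split of signs depended on the scaling between arrays: cyclic loess and no scaling each gave 5 positive and 4 negative, and the median of each array gave 4 and 5. Relative to the median of all genes, Ccr1, Ccr2, Cxcr4 and Cxcr6 lay above it and Ccr7, Cx3cr1 and Cxcr3 below it in all 7 scalings tried, no scaling included, while Cxcr2 and Ackr3 lay on either side, depending on the scaling.

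**Figure D1:**
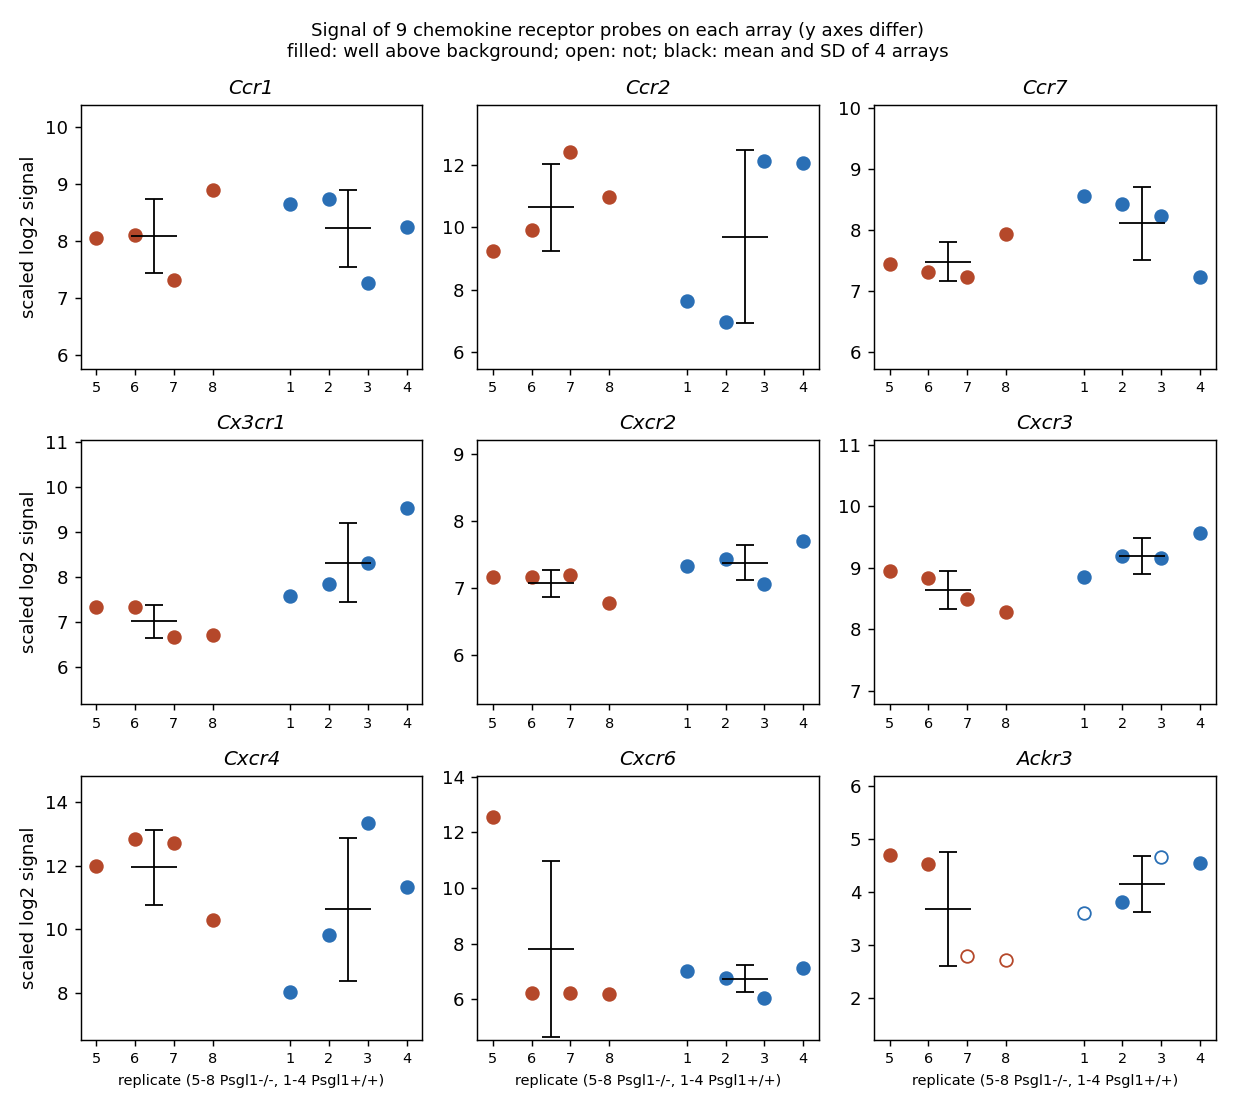
Scaled log2 signal of the probe of each receptor on each array, Psgl1-/- (red) left of Psgl1+/+ (blue), with the mean and SD of 4 arrays in black, filled points well above background and open points not. The groups are apart only for Cx3cr1, and Cxcr6 has 1 Psgl1-/- array at 12.54 while the other 7 lie between 6.05 and 7.12.

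Ccr2, the receptor for Ccl2, Ccl7 and Ccl12, spread over more of the scale than most genes on the array. Its probe read 9.25, 9.92, 12.43 and 10.98 on Psgl1-/- replicates 5, 6, 7 and 8, against 7.64, 6.98, 12.11 and 12.07 on Psgl1+/+ replicates 1, 2, 3 and 4. The Psgl1+/+ arrays fell into a low pair (replicates 1 and 2) and a high pair (replicates 3 and 4), and the Psgl1-/- arrays lay between or just above these, so the groups overlapped. The mean was 10.64 ± 1.39 in Psgl1-/- cells and 9.70 ± 2.78 in Psgl1+/+ cells (SD, n = 4 each), a difference of 0.94 (SE 1.39, 95% interval -2.28 to 4.17, adjusted p = 0.782 in limma). The interval spans large differences in either direction, and leaving out 1 array at a time gave between 0.04 (without Psgl1+/+ replicate 2) and 1.75 (without Psgl1+/+ replicate 3). The SD among Psgl1+/+ arrays was larger for only 7.44% of all genes.

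Cx3cr1, the receptor for fractalkine (Cx3cl1), was the 1 receptor whose groups did not overlap. Its probe read 7.33, 7.34, 6.67 and 6.72 on Psgl1-/- replicates 5 to 8, against 7.58, 7.85, 8.31 and 9.55 on Psgl1+/+ replicates 1 to 4. All 4 Psgl1-/- arrays lay below the lowest Psgl1+/+ array, and the highest, Psgl1+/+ replicate 4, stood 1.23 above the next. The mean was 7.02 ± 0.37 in Psgl1-/- cells and 8.32 ± 0.87 in Psgl1+/+ cells (SD, n = 4 each). The difference was -1.30 (SE 0.46, 95% interval -2.38 to -0.23) with an unadjusted p of 0.0237, and it did not pass after adjustment (adjusted p = 0.454 in limma). Relative to the median of all genes the difference was -0.97, and between -1.01 and -0.81 over the 7 scalings. Without any scaling between arrays the difference was -0.84, the unadjusted limma p was 0.0632 and the groups overlapped. Within slide row 1 the difference was -1.66, and within slide row 2 it was -0.94. Leaving out 1 array at a time gave between -1.55 (without Psgl1+/+ replicate 1) and -0.90 (without Psgl1+/+ replicate 4). The unadjusted limma p was 0.0584 without Psgl1-/- replicate 7 and 0.0579 without Psgl1-/- replicate 8, and under 0.05 without any other single array. It was 0.0533 after normexp background correction and quantile normalization.

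Ccr2 and Cx3cr1 mark opposite ends of the monocyte range in mice, so their difference on the same array was compared, which no shift of a whole array can move. On the Psgl1-/- arrays Ccr2 minus Cx3cr1 was 1.92, 2.57, 5.76 and 4.26 (mean 3.63, SD 1.73), against 0.06, -0.87, 3.80 and 2.53 (mean 1.38, SD 2.16) on the Psgl1+/+ arrays. As it sets 2 probes against each other, only its change between arrays has a meaning. It was 2.25 larger in Psgl1-/- cells, with groups that overlapped (exact two-sided permutation test over 70 arrangements, p = 0.171, adjusted p = 0.257 over the 3 pairs compared, smallest possible p 0.0286). The test rearranges single arrays and takes no account of the slide columns described below. Within slide rows 1 and 2 the change was 2.59 and 1.91.

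**Figure D2:**
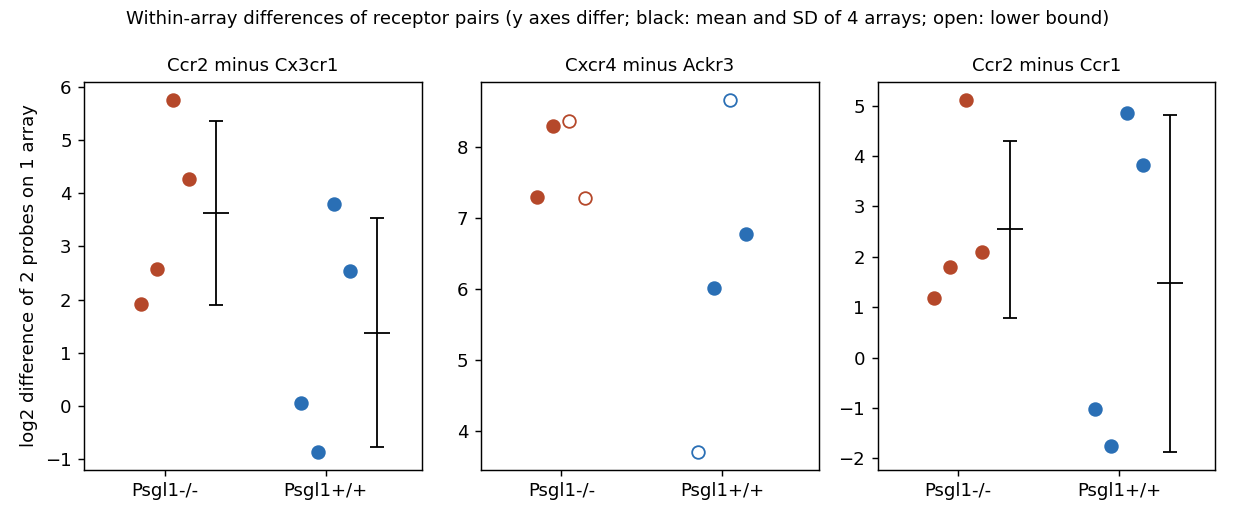
Log2 difference of 2 probes on the same array for 3 pairs of receptors, Psgl1-/- (red) left of Psgl1+/+ (blue), in replicate order within a group, with the mean and SD of 4 arrays in black and open points as lower bounds, where Ackr3 was not above background. The groups overlap for Ccr2 minus Cx3cr1 and for Ccr2 minus Ccr1, and each y axis has its own range.

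Ccr1 binds inflammatory chemokines such as Ccl3 and Ccl5 and is found on monocytes and neutrophils. Its probe read 8.07, 8.11, 7.31 and 8.90 on Psgl1-/- replicates 5 to 8, against 8.66, 8.74, 7.26 and 8.24 on Psgl1+/+ replicates 1 to 4. Each group had 1 array well below the rest, Psgl1-/- replicate 7 and Psgl1+/+ replicate 3, and the ranges overlapped almost whole. The difference was -0.13 (SE 0.46, 95% interval -1.20 to 0.94, adjusted p = 0.916 in limma). Its sign was not stable, with 0.03 after scaling on the median of each array, 0.15 after cyclic loess and 0.34 with no scaling. The arrays low for Ccr1 were among those high for Ccr2. On the same array, Ccr2 minus Ccr1 was 1.18, 1.80, 5.11 and 2.09 on the Psgl1-/- arrays (mean 2.55, SD 1.75), against -1.03, -1.76, 4.85 and 3.83 on the Psgl1+/+ arrays (mean 1.47, SD 3.35). The change of 1.07 was within the spread of either group (exact permutation test, p = 0.514, adjusted p = 0.514).

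Cxcr2 is the receptor that brings neutrophils to Cxcl1, Cxcl2 and Cxcl5, and the Ly6G gate was set to leave neutrophils out. Its probe varied least of the 9 and read 7.16, 7.17, 7.20 and 6.77 on Psgl1-/- replicates 5 to 8, against 7.32, 7.43, 7.06 and 7.70 on Psgl1+/+ replicates 1 to 4. Psgl1-/- replicate 8 was lowest and Psgl1+/+ replicate 4 highest, and Psgl1+/+ replicate 3 lay among the Psgl1-/- arrays. The range over 8 arrays was 0.93, and 93.6% of all genes had a larger one. The difference was -0.30 (SE 0.25, 95% interval -0.88 to 0.27, adjusted p = 0.601 in limma), which is 0.03 above the median of all genes. It was 0.02 after cyclic loess and 0.16 with no scaling. Of 12 neutrophil markers 11 or 12 were well above background on each array, beside 76.1 to 88.2% of all gene spots. The differences of these markers were positive for 7 and negative for 5, with none past the threshold. Their summed level lay between 15.42 and 15.95 in Psgl1-/- cells and between 15.47 and 16.06 in Psgl1+/+ cells. That sum rested mainly on the brightest marker, Csf3r. Without Csf3r it lay between 12.925 and 14.79 in Psgl1-/- cells and between 11.83 and 13.37 in Psgl1+/+ cells, so the groups overlapped. Groups did not overlap for 2 of these markers, named after their values were seen. Of all genes, 0.641% had no overlap and higher signal in Psgl1-/- cells, and 10.8% no overlap and lower signal. S100a9, a calcium-binding protein, averaged 12.45 (SD 0.59) in Psgl1-/- cells and 7.67 (SD 3.15) in Psgl1+/+ cells. Its difference was 4.78 (SE 1.43, adjusted p = 0.454 in limma). Csf3r, the G-CSF receptor, averaged 15.09 in Psgl1-/- cells and 15.50 in Psgl1+/+ cells. The Csf3r difference was -0.40 (SE 0.25, adjusted p = 0.508 in limma). The part of neutrophil RNA in the Cxcr2 values was not tested.

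Ccr7 guides dendritic cells and T cells to lymph nodes along Ccl19 and Ccl21. Its probe read 7.44, 7.32, 7.23 and 7.94 on Psgl1-/- replicates 5 to 8, against 8.56, 8.43, 8.23 and 7.24 on Psgl1+/+ replicates 1 to 4. Of the Psgl1+/+ arrays 3 lay above every Psgl1-/- array, and replicate 4 lay at the bottom with Psgl1-/- replicate 7. The difference was -0.63 (SE 0.36, 95% interval -1.47 to 0.21, adjusted p = 0.490 in limma). It was -0.20 within slide row 1 and -1.06 within slide row 2. The summed level of markers of mature migratory dendritic cells, a cell type known for Ccr7, which the list leaves out, lay between 11.40 and 13.29 in Psgl1-/- cells and between 13.25 and 14.68 in Psgl1+/+ cells over the 8 markers with a value on all arrays, so the groups overlapped, with 1 positive and 6 negative differences among 7 tested and none past the threshold. That list's part in the Ccr7 values was not tested.

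Cxcr4 and Ackr3 both bind Cxcl12, Cxcr4 as a signalling receptor and Ackr3 as a receptor that takes the chemokine up without G protein signalling. Cxcr4 read 11.9985, 12.83, 12.70 and 10.27 on Psgl1-/- replicates 5 to 8, against 8.02, 9.81, 13.32 and 11.32 on Psgl1+/+ replicates 1 to 4. Psgl1+/+ replicates 1 and 2 lay below every Psgl1-/- array, while Psgl1+/+ replicate 3 was the highest of the 8. The mean was 11.95 ± 1.18 in Psgl1-/- cells and 10.62 ± 2.25 in Psgl1+/+ cells (SD, n = 4 each), a difference of 1.33 (SE 1.14, 95% interval -1.32 to 3.98, adjusted p = 0.621 in limma). Leaving out 1 array at a time gave between 0.46 and 2.23, the lowest without Psgl1+/+ replicate 1 and the highest without Psgl1+/+ replicate 3.

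Ackr3 was dim, and its probe was well above background on only 2 of 4 arrays of each group (Psgl1-/- replicates 5 and 6, Psgl1+/+ replicates 2 and 4). It read 4.70, 4.53, 2.80 and 2.71 on Psgl1-/- replicates 5 to 8, against 3.60, 3.81, 4.66 and 4.55 on Psgl1+/+ replicates 1 to 4. The 2 Psgl1-/- arrays above background lay beside Psgl1+/+ replicates 3 and 4, and the other 2 below all Psgl1+/+ arrays. The difference was -0.47 (SE 0.57, 95% interval -1.79 to 0.85, adjusted p = 0.733 in limma), and without scaling it was -0.004. Leaving out 1 array at a time gave between -0.81 (without Psgl1-/- replicate 5) and -0.15 (without Psgl1-/- replicate 8). On the arrays where both probes were above background, Cxcr4 minus Ackr3 was 7.30 and 8.29 on Psgl1-/- replicates 5 and 6, against 6.01 and 6.77 on Psgl1+/+ replicates 2 and 4. On the other 4 arrays it is only a lower bound, with Ackr3 set to the higher of its own signal and the dimmest signal well above background there. The bound was 8.37 and 7.28 on Psgl1-/- replicates 7 and 8, against 3.70 and 8.66 on Psgl1+/+ replicates 1 and 3. With bounds on 4 of 8 arrays, no mean and no test is read from this pair.

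Cxcr3 is the receptor for the interferon-induced Cxcl9, Cxcl10 and Cxcl11, and is best known from T and NK cells. Its probe read 8.95, 8.83, 8.49 and 8.28 on Psgl1-/- replicates 5 to 8, against 8.86, 9.19, 9.17 and 9.57 on Psgl1+/+ replicates 1 to 4. The groups overlapped by 1 array, as Psgl1-/- replicate 5 lay just above Psgl1+/+ replicate 1. The difference was -0.56 (SE 0.27, 95% interval -1.19 to 0.08, adjusted p = 0.463 in limma), and -0.22 relative to the median of all genes. Without scaling it was -0.09. Summed marker levels of T cells lay between 12.55 and 13.02 in Psgl1-/- cells and between 13.16 and 13.74 in Psgl1+/+ cells, and those of NK cells between 13.45 and 13.66 in Psgl1-/- cells and between 13.87 and 15.17 in Psgl1+/+ cells. Both gaps rested on the brightest marker of the list: without Cd4 the T cell sums lay between 11.68 and 12.43 in Psgl1-/- cells and between 12.26 and 13.12 in Psgl1+/+ cells, and without Khdc1a the NK cell sums lay between 11.24 and 11.83 in Psgl1-/- cells and between 11.39 and 12.44 in Psgl1+/+ cells. Of 11 T cell markers 1 had a positive and 10 a negative difference, and of 9 NK cell markers 4 and 5, with none past the threshold. Between 9 and 11 of the T cell markers and 8 or 9 of the NK cell markers were well above background per array. Beside them, 76.1 to 88.2% of all gene spots were. The part of these markers' cells in the Cxcr3 values was not tested.

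Cxcr6, the receptor for Cxcl16 that is found on subsets of T and NK cells, was high on 1 array. Its probe read 12.54, 6.25, 6.21 and 6.19 on Psgl1-/- replicates 5 to 8, against 7.03, 6.77, 6.05 and 7.12 on Psgl1+/+ replicates 1 to 4. Psgl1-/- replicate 5 stood alone, while the other 3 Psgl1-/- arrays lay within the lower end of the Psgl1+/+ range. In unscaled processed signal that array gave 6831 and the other 7 between 54.33 and 120.5. The gap to the next array, 5.41 on the log2 scale or 42.6-fold after scaling, was matched or exceeded by the gap of 1 array above the rest in 558 genes, which is 1.32% of genes. The difference was 1.05 (SE 1.43, 95% interval -2.27 to 4.37, adjusted p = 0.763 in limma), and without Psgl1-/- replicate 5 it was -0.53.

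**Figure D3:**
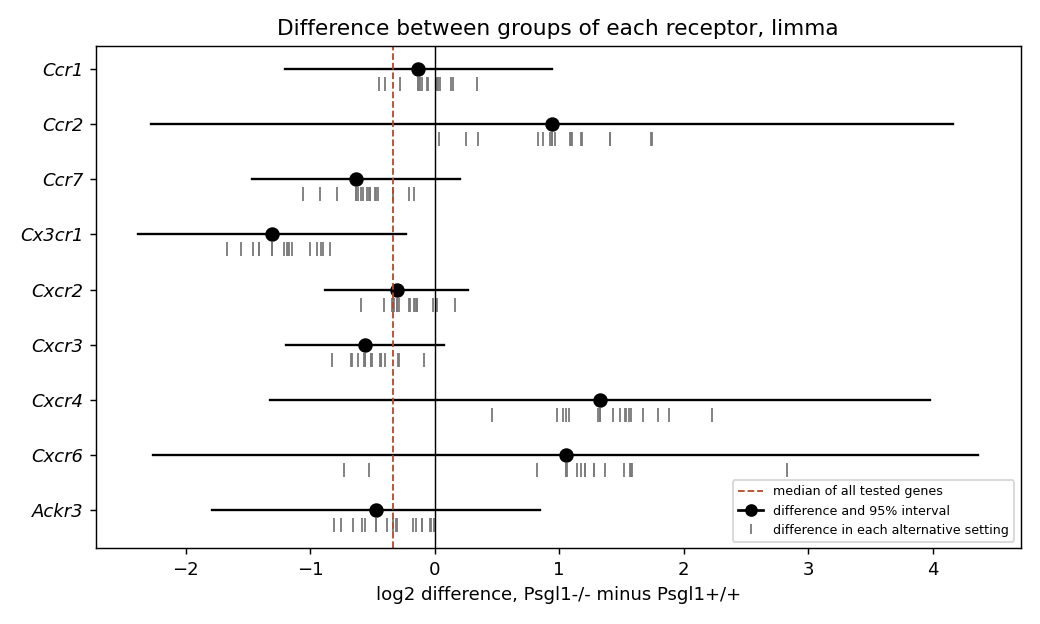
Difference of each receptor (log2, Psgl1-/- minus Psgl1+/+) with its 95% interval from limma as points and bars, the median of all tested genes (-0.33) as a dashed line and the value under each alternative setting as grey ticks. Only the interval of Cx3cr1 lies wholly on 1 side of 0, and the ticks of Ccr1, Cxcr2 and Cxcr6 fall on both sides.

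Arrays in the same slide column gave closer values than arrays of the same genotype in different columns for 6 of the 8 receptors above background on all arrays, a pattern seen only after the values were examined. Over all genes this held for 47.8%, with a median ratio of same-column to other-column difference of 1.02. For Ccr2 the mean difference between arrays was 0.70 within a column and 3.45 between the columns of a genotype, a ratio of 0.203, which 0.468% of genes matched or fell below. Column means of Ccr2 were 9.58 and 11.71 in Psgl1-/- columns 3 and 4, against 7.31 and 12.09 in Psgl1+/+ columns 1 and 2. For Cx3cr1 the mean difference was 0.39 within a column and 0.93 between the columns of a genotype, a ratio of 0.421. Its column means were 7.34 and 6.70 in columns 3 and 4, against 7.71 and 8.93 in columns 1 and 2. Ackr3 was not above background on either array of column 4 and on 1 array each of columns 1 and 2, so its values are drawn but not ranked. The labels do not say whether arrays of a column share animals, a sort or a labelling run. With the column as a random block in limma, no receptor passed the threshold. That fit used a single correlation within columns for all genes, -0.0052, against 0.947 for Ccr2 alone and 0.652 for Cx3cr1 alone. It therefore left the values almost unchanged and could not account for the column pattern of Ccr2 or Cx3cr1. The main limma fit treated the arrays as independent. So did the permutation tests of Ccr2 minus Cx3cr1 and Ccr2 minus Ccr1, and their p-values do not account for columns either.

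**Figure D4:**
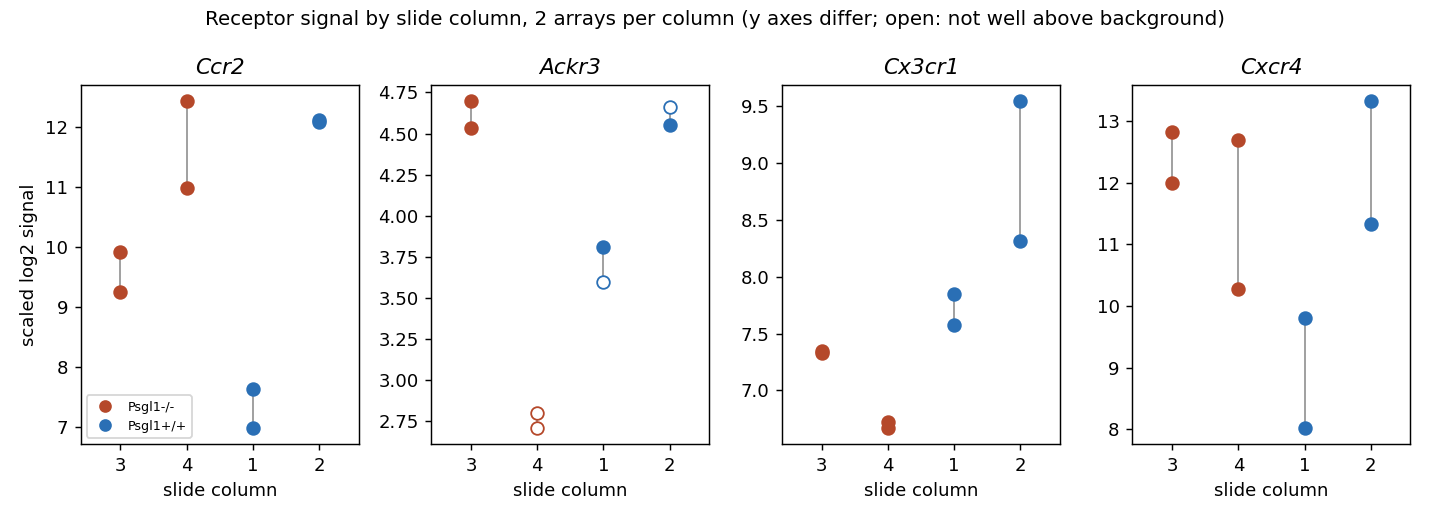
Scaled log2 signal of Ccr2, Ackr3, Cx3cr1 and Cxcr4 by slide column, with Psgl1-/- columns 3 and 4 (red) left of Psgl1+/+ columns 1 and 2 (blue) a line joining the 2 arrays of a column and open points not well above background. Ccr2 differs less within a column than between the columns of a genotype, and each y axis has its own range.

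The genes whose centred profiles over the 8 arrays lay nearest to each receptor were found among 21489 genes with a symbol that were well above background on all 8 arrays, as were all receptors but Ackr3. Likeness was the mean absolute difference of the profiles divided by the receptor's own mean absolute deviation, so 0 is an identical profile. Nearest to Ccr2 were Rnf130 (ratio 0.212), a ubiquitin ligase, and Aplp2 (0.247), a relative of the amyloid precursor protein. Nearest to Cx3cr1 were Dio1 (0.154), an enzyme that activates thyroid hormone, and Gm35351 (0.190). Nearest to Cxcr4 were Shc1 (0.316), an adaptor of receptor tyrosine kinases, and Ddx39b (0.353), an RNA helicase. Nearest to Cxcr6 were Gm34960 (0.147) and Tek (0.168), the angiopoietin receptor of endothelial cells. Tek shared the single high array: it read 12.99 on Psgl1-/- replicate 5 and between 6.44 and 6.82 on the other Psgl1-/- arrays, against 6.66 to 7.07 on the Psgl1+/+ arrays. Nearest to Cxcr3 were Tgfbr3l (0.173) and Gm35058 (0.229), and to Ccr7 Plppr5 (0.290) and Ggn (0.352). Ccr1 had Gm7030 (0.323) and Slc22a23 (0.375), and Cxcr2 had Fam89a (0.307) and Sipa1l3 (0.338).

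Of 21 genes listed as ligands of these receptors, 20 were on the array and 19 were tested. None passed the threshold after adjustment, 6 differences were positive and 13 negative, and their median was -0.51, against -0.33 for all genes. Without adjustment 1 ligand had a p under 0.05 with a positive difference, beside 1.61% of all genes, and 3 with a negative difference, beside 9.37%. The positive one was Cxcl16, the ligand of Cxcr6, which macrophages can shed from their surface. It read 8.06, 8.92, 9.45 and 8.69 on Psgl1-/- replicates 5 to 8, against 5.86, 7.07, 5.01 and 5.24 on Psgl1+/+ replicates 1 to 4. Every Psgl1-/- array lay above every Psgl1+/+ array, which 0.641% of all genes also showed in that direction. The difference was 2.98 (SE 0.52, 95% interval 1.77 to 4.19) with an unadjusted p of 0.000516 and an adjusted p of 0.447 in limma, so it did not pass. Over the 7 scalings the Cxcl16 difference ran between 2.19 and 3.45, the groups stayed apart in all 7, and the lowest adjusted p was 0.349.

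The ligands of Ccr2 gave no common direction. Ccl2 read 10.78, 11.87, 10.47 and 12.70 on the Psgl1-/- arrays, against 8.89, 10.33, 12.002 and 4.86 on the Psgl1+/+ arrays, a difference of 2.43 (SE 1.44, adjusted p = 0.4996 in limma). Psgl1+/+ replicate 4 was far below all others, and Psgl1+/+ replicate 3 lay among the Psgl1-/- arrays. Ccl7 differed by 0.24 (SE 0.66, adjusted p = 0.888) and Ccl12 by -1.86 (SE 1.09, adjusted p = 0.497). The ligand of Cx3cr1, Cx3cl1, read 6.01, 6.52, 6.22 and 6.05 on the Psgl1-/- arrays, against 6.66, 6.79, 6.57 and 7.19 on the Psgl1+/+ arrays. These did not overlap, but the difference of -0.60 (SE 0.26, adjusted p = 0.454) was -0.10 on the gene's other probe, and the groups were apart in only 1 of the 7 scalings. Cxcl12, the ligand of Cxcr4 and Ackr3, differed by -2.002 (SE 1.18, adjusted p = 0.499) on the brighter probe. The other Cxcl12 probe differed by -1.01 with a smaller SE of 0.25 (adjusted p = 0.473 in limma over all tested probes). Cxcl5, a ligand of Cxcr2, differed by -0.84 (SE 0.29, adjusted p = 0.454), with groups apart in 6 of 7 scalings. Cxcl11, a ligand of Cxcr3, differed by -0.56 (SE 0.23, adjusted p = 0.454), but its sign turned in 3 of 7 scalings, up to 0.10.

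Of 15 other chemokine receptors, all were tested, 3 differences were positive and 12 negative, and the median was -0.50. None passed after adjustment, 1 had an unadjusted p under 0.05 with a negative difference, beside 9.37% of all genes, and 2 had groups that did not overlap with lower signal in Psgl1-/- cells, beside 10.8% of all genes. These were Xcr1, a receptor of cross-presenting dendritic cells, with -0.84 (SE 0.31, adjusted p = 0.454 in limma), and Ccr10, named after its values were seen, with -1.41 (SE 0.75, adjusted p = 0.475). The groups of Xcr1 were apart in 1 of 7 scalings. Ccr10 read 14.33 on Psgl1+/+ replicate 1 and 10.95 to 11.56 on the other Psgl1+/+ arrays. The highest Psgl1-/- array, replicate 5, lay just below these at 10.92. Cxcr1, a receptor related to Cxcr2, differed by -1.11 (SE 0.51, adjusted p = 0.454).

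The list of signalling behind the receptors had 24 genes, among them Grk, Rgs and Arrb genes, which regulate or end the signal. All were tested, 14 differences were positive and 10 negative, and the median was 0.32, against -0.33 for all genes. None passed after adjustment, and 1, Gnb1, a beta subunit of heterotrimeric G proteins, had an unadjusted p under 0.05 with a positive difference, beside 1.61% of all genes. Gnb1 read 11.83, 12.44, 13.41 and 13.51 on Psgl1-/- replicates 5 to 8, against 11.60, 10.34, 11.52 and 9.14 on Psgl1+/+ replicates 1 to 4. The groups did not overlap in any of the 7 scalings, and on the main scale 0.641% of all genes were apart in that direction, with a difference of 2.15 (SE 0.66, 95% interval 0.62 to 3.67, adjusted p = 0.454 in limma). Nup85, a nuclear pore protein that also binds the tail of Ccr2, differed by 2.05 (SE 0.96, adjusted p = 0.458). Rac2, a small GTPase of leukocytes, differed by 1.07 (SE 0.49, adjusted p = 0.455). Both had overlapping groups on the main scale.

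**Figure D5:**
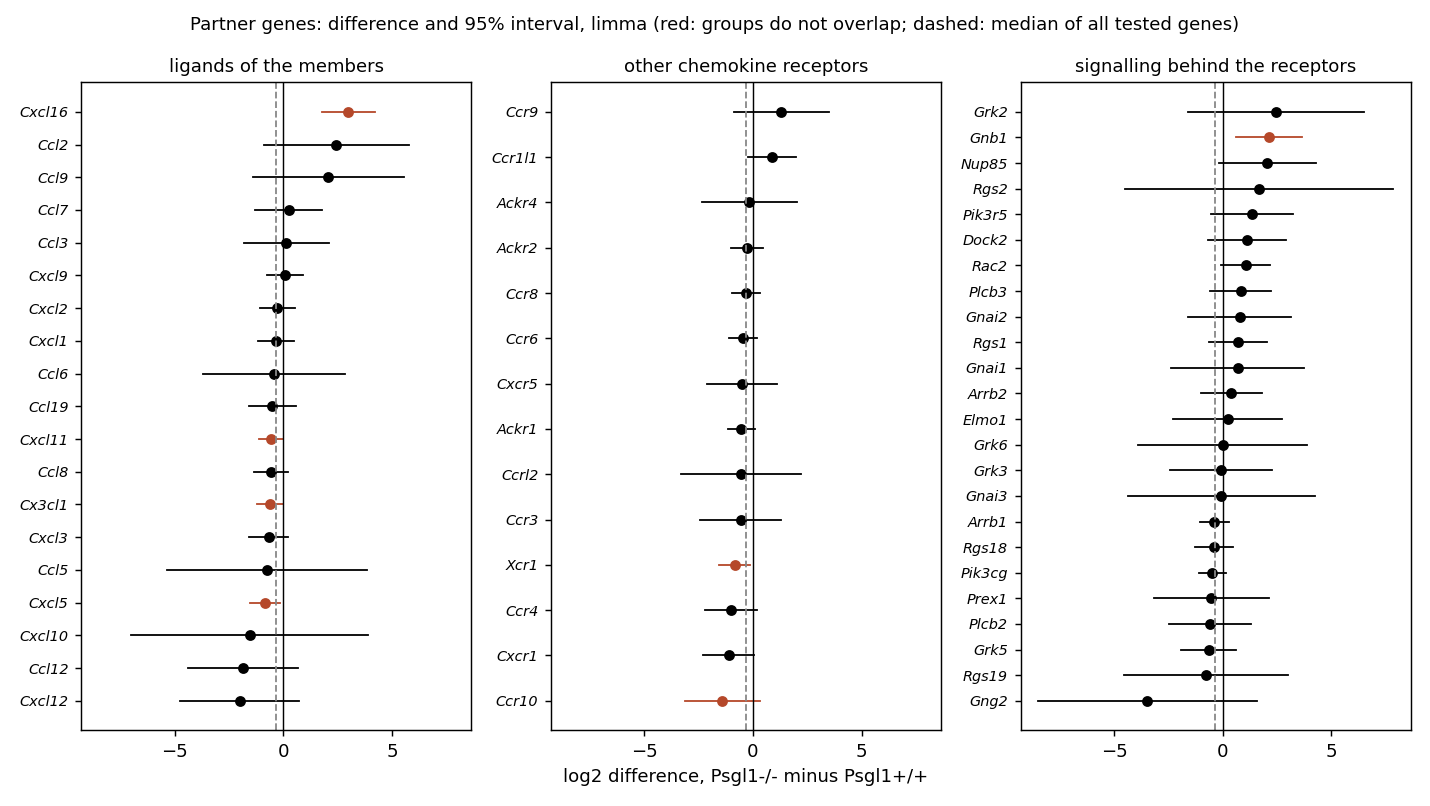
Difference (log2, Psgl1-/- minus Psgl1+/+) and 95% interval from limma for the ligands, the other chemokine receptors and the signalling genes, sorted by size, without 1 of the other receptors, with genes whose groups do not overlap in red and the median of all tested genes (-0.33) dashed. Cxcl16 at 2.98 and Gnb1 at 2.15 lie highest among the red genes, and none of those drawn passed the adjusted threshold.

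Marker lists of monocytes and macrophages gave ranges that overlapped between the groups. The summed level of 11 markers of Ly6C-high monocytes, a list without any of the 9 receptors, lay between 14.71 and 15.87 in Psgl1-/- cells and between 14.06 and 16.38 in Psgl1+/+ cells, with 9 positive and 2 negative differences and none past the threshold. The 10 markers of Ly6C-low monocytes ranged between 12.95 and 15.08 in Psgl1-/- cells and between 13.44 and 14.64 in Psgl1+/+ cells, with 5 differences of each sign. Microglial markers ranged between 16.00 and 16.73 in Psgl1-/- cells and between 16.07 and 17.10 in Psgl1+/+ cells, with 7 positive and 4 negative differences. Markers of border-associated macrophages ranged between 15.13 and 16.14 in Psgl1-/- cells and between 14.14 and 16.09 in Psgl1+/+ cells. Of these, 8 differences were positive and 2 negative. The median differences of these lists were 0.35, -0.11, 0.10 and 0.17 in the order given. The median of all genes was -0.33, and 69.2% of them were negative. Lists of B cells and neurons, which the gate does not aim at, did not overlap on the main scale. All marker sums, those of T and NK cells included, were read on that scale only. On it, 10.8% of all genes had no overlap and lower signal in Psgl1-/- cells, and the part of the scaling in these gaps was not tested. B cell markers summed to between 14.51 and 14.96 in Psgl1-/- cells and between 15.09 and 15.36 in Psgl1+/+ cells, with 2 positive and 6 negative differences. Without Cd79a, the brightest, the B cell sums overlapped, with 13.39 to 13.998 in Psgl1-/- cells and 13.65 to 14.48 in Psgl1+/+ cells. Neuronal markers summed to between 16.60 and 16.95 in Psgl1-/- cells and between 17.13 and 17.77 in Psgl1+/+ cells, with 1 positive and 6 negative differences, and without the brightest, Snap25, to between 15.53 and 15.93 in Psgl1-/- cells and between 16.12 and 16.68 in Psgl1+/+ cells. Syt1, the brightest of the remaining neuronal markers, averaged 15.53 in Psgl1-/- cells and 16.10 in Psgl1+/+ cells, so that sum too rested mainly on a single gene. The part of these lists in the receptor values was not tested.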

How the data were processed

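RNA of 8 samples, 4 Psgl1-/- and 4 Psgl1+/+, was labelled with cyanine 3 after random-primed amplification, per the labels' protocols, and hybridised to 8 arrays on 1 slide of an Agilent custom design. The deposited scanner files hold each spot's brightness as an intensity on a linear scale, corrected by Feature Extraction for background and spatial trends, with no step between arrays, as recorded in the headers; build mm9, per the file headers. The deposited value table of 59448 rows holds intensities; no label or header states their normalization, but all 8 columns hold the same sorted values within a relative tolerance of 0.001 (median 132.9), as quantile normalization gives, and the table served only as an alternative. Its scale was found to be linear by comparison with the scanner values.

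The 75th percentile of each array was subtracted from log2 of the processed signal and the mean of the 8 percentiles added back. Control spots and outlier flags were left out, spots of a probe were averaged, and the probe with the highest mean stood for its gene. A gene was tested where 4 or more of the 8 arrays were well above background (42432 genes). Of 60273 probes, 31064 were named by RefSeq accession, 8935 by symbol and 420 by an older symbol, through a table of assembly GRCm38.p6 that was used for names only. Groups were compared in limma 3.58.1 (lmFit and eBayes, under R 4.3.3), a procedure tested on simulated data, with p-values adjusted by Benjamini-Hochberg over all genes at 0.05. Pairs of probes on an array were compared by exact permutation tests. The number of arrays limits the precision. Other settings were quantile normalization, cyclic loess, each array's median, normexp with an offset of 50, the value table, other filters on dim probes, the mean over probes, an intensity trend, the slide row as a block, and leaving out each array. Values within slide rows, the slide column as a random block, no scaling and list sums without the brightest marker were added after seeing the data.

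The receptors, gene lists and tests were chosen with earlier results of these data known. The genes named are the 9 receptors, those of the sort gate, Ccl2, Ccl7, Ccl12, Cx3cl1, Cxcl12 and Cxcl16, the 3 genes of each partner list with the smallest unadjusted p, and the 2 genes with the profile most like each receptor. The values of 1 gene that this rule names are not reported here. Python 3.11.15 was used with pandas 2.3.3, numpy 2.4.6 and matplotlib 3.10.9, beside the data.table package (version 1.17.8) of R.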

Additional observations from a re-analysis of the deposited data

Results flagged for a closer look

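Single arrays stood far from the other 3 of their group, beyond the 95% critical value of Dixon's test, in 4 of 56 groups of 28 named genes. For the receptors this was 2 of 18 groups. The count did not cover Ccr10, the genes named for a profile like a receptor's, or the markers outside the sort gate. Chance marks about 1 in 20 groups. Among the receptors, Cxcr6 read 12.54 on Psgl1-/- replicate 5, with the nearest array of its group at 6.25, and Cxcr2 read 6.77 on Psgl1-/- replicate 8, with the nearest at 7.16. Among the other genes counted, Ccl12 read 8.98 on Psgl1-/- replicate 8, with the nearest at 5.92, and Cd3e, a T cell receptor component, read 12.03 on Psgl1+/+ replicate 3, with the nearest at 6.49. No cause was tested.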

How the results depend on the processing

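No receptor passed the adjusted threshold under any of 22 alternatives (limma; 1 of 9 without adjustment in the setting reported), and the signs of Ccr2, Ccr7, Cx3cr1, Cxcr3, Cxcr4 and Ackr3 held in all that were run. The Cx3cr1 difference ran between -1.66 and -0.84 (adjusted p between 0.411 and 0.914), and that of Ccr2 between 0.04 and 1.75. The sign of Ccr1 (-0.13) turned on the array median (0.0295), after cyclic loess (0.15), with no scaling (0.34), within slide row 1 (0.0145) and without 3 single arrays (range -0.45 to 0.13 when each is left out). That of Cxcr2 (-0.30) turned after cyclic loess (0.0190) and with no scaling (0.16), and that of Cxcr6 (1.05) within slide row 1 (-0.73) and without Psgl1-/- replicate 5 (range -0.53 to 1.59 when each array is left out). The change in Ccr2 minus Ccr1 (1.07) was -0.00327 without Psgl1+/+ replicate 2 (range -0.00327 to 2.20). Of all genes, 1 passed the threshold. That count was 4 after cyclic loess, 7 when all 8 arrays had to be above background, 5 with the mean over probes, 5 with an intensity trend, 2 with the slide row as a block, 10 with no scaling, and 0 within slide row 1 and within slide row 2 (2026 and 1951 without adjustment). Leaving out 1 array gave between 0 and 10, with 0 without Psgl1+/+ replicate 1 and without Psgl1-/- replicate 7 (3457 and 2805 without adjustment). The cause was not tested. No paired analysis was possible because the labels number the groups 5 to 8 and 1 to 4, with no number in common. The number of arrays limits every value, and for Ackr3 so does signal near background.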

Other observations

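Ptprc, which encodes CD45, the marker the cells were sorted on, spread as widely as Ccr2. It read 9.46, 12.69, 13.04 and 8.87 on Psgl1-/- replicates 5 to 8, against 8.86, 8.65, 13.57 and 13.90 on Psgl1+/+ replicates 1 to 4, so replicates 1 and 2 were low and replicates 3 and 4 high in Psgl1+/+ cells, the same arrays as for Ccr2. The difference was -0.23 (SE 1.60, adjusted p = 0.957 in limma), and it was negative in only 3 of 7 scalings. Of the other tested probes of Ptprc, 1 differed in sign, at 0.50 (SE 1.12), and the rest gave -0.21 (SE 0.38) and -2.97 (SE 1.75). The array pattern given here is that of the brightest probe only. Itgam, which encodes CD11b, lay between 12.23 and 14.34 in Psgl1-/- cells and between 13.13 and 14.18 in Psgl1+/+ cells. Psgl1+/+ replicate 4 was the highest array for 3 of the 9 receptors and for 28.3% of all genes.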
